A study of Mus musculus with 4 samples.

Results

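Nodal signalling and its inhibitors were followed through 8 genes, chosen by symbol. These are the ligands *Nodal* and *Gdf3*, the co-receptor *Tdgf1*, the transcription factor *Foxh1*, and the inhibitors *Lefty1*, *Lefty2*, *Cer1* and *Fst*. They are 8 of 19616 genes listed in any of the 3 stage libraries, and all 8 are listed in each library.

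Mouse embryos were collected at 3 stages that the labels call MS-LS (E6+21h), OB-EB (E7+3h) and EHF (E7+14h). Every embryo was TnEGP-CreERT2/+; R26Rtdtomato/R26Rtdtomato, so that CreERT2 and a nuclear GFP were made from the endogenous *T* locus, which is active in the primitive streak, and the *R26R* locus carried a tdTomato reporter. Tamoxifen was given by oral gavage (0.08 mg/bw) at all stages, at an earlier age that differed between them, so stage and time of treatment cannot be told apart. The embryos of a stage were pooled into 1 droplet library, which counts the 3′ ends of transcripts by unique molecular identifiers (UMIs).

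The libraries hold 3635 cells and 17966956 UMIs at MS-LS (median 4251 UMIs per cell), 3994 cells and 12181436 UMIs at OB-EB (median 2620.5), and 3494 cells and 20376539 UMIs at EHF (median 5584). A second table deposited for EHF held the same value in all 65128160 places and was counted with the first as 1 library. MS-LS and OB-EB share 18 cell barcodes, MS-LS and EHF 12, and OB-EB and EHF 14. With 1 library per stage there is no replicate and no test, and all intervals given are 95% intervals for counting error only. A level is the UMIs of a gene as counts per 1000000 UMIs (CPM), and levels are compared within a gene, not between genes.

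Nodal is a TGF-beta family ligand that induces mesoderm and endoderm and patterns the body axis of the gastrulating embryo. It acts through activin receptors together with a co-receptor of the EGF-CFC family, and the signal reaches target genes through Smad proteins and Foxh1. Several targets encode secreted inhibitors that bind the ligand or its co-receptor, and these limit where and for how long the pathway is active.

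The 8 genes followed different courses over the stages. *Nodal* was highest at MS-LS and lower at each later stage. *Tdgf1* was high at MS-LS and OB-EB and near 0 at EHF. Of the inhibitors, *Lefty1* was nearly confined to MS-LS in UMIs, *Lefty2* to MS-LS and OB-EB, *Cer1* was found at all stages, and *Fst* was higher at OB-EB than at MS-LS. *Foxh1* and *Gdf3* gave few UMIs at every stage. These are values of whole libraries, in which a change in the mix of cells and a change in the level per cell cannot be told apart.

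**Figure D1:**
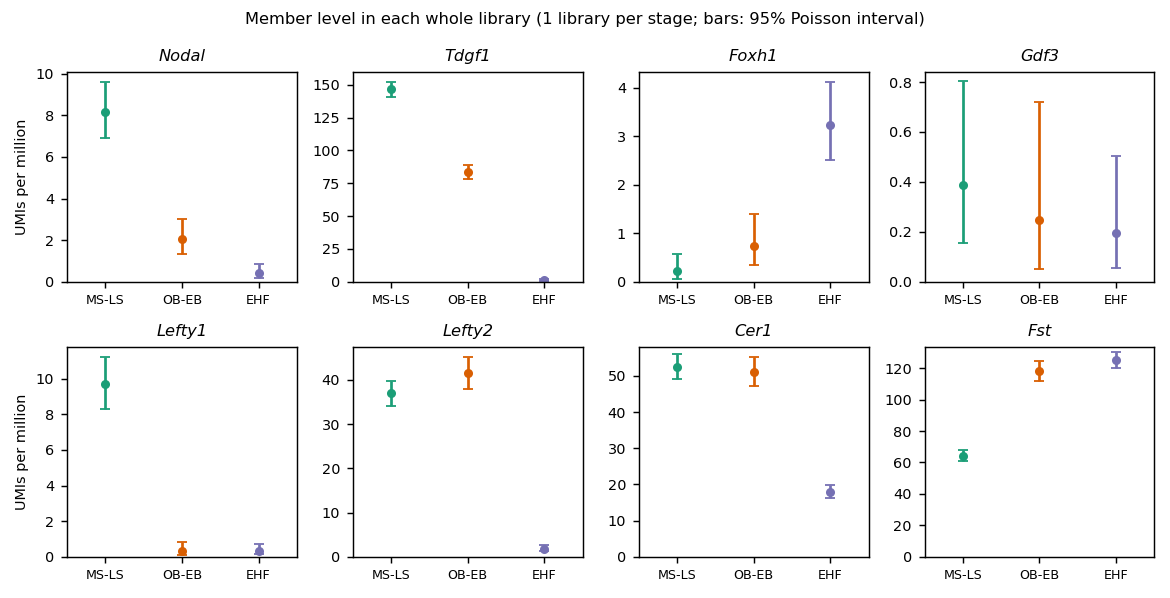
CPM of each gene, on an axis of its own, in the 3 libraries, 1 per stage, with 95% Poisson intervals as bars. *Lefty1* and *Nodal* were lower at OB-EB than at MS-LS, while *Tdgf1* and *Lefty2* were near 0 at EHF only.

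For a count of changes between consecutive stages, a gene entered with at least 100 UMIs over both libraries and was called at 2-fold. From MS-LS to OB-EB, 6 of the 8 genes entered, 2 were called lower (*Nodal* and *Lefty1*) and 0 higher. Of all 9706 genes entered, 3.28% were called lower and 4.17% higher. From OB-EB to EHF, 4 of the 8 entered, 3 were called lower (*Tdgf1*, *Lefty2* and *Cer1*) and 0 higher, against 5.55% lower and 15.2% higher of 10490 genes. The median log2 ratio of all entered genes was −0.09 from MS-LS to OB-EB and 0.37 from OB-EB to EHF, so ratios of the later step are also given minus this median.

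For levels by cell type, each library was clustered without the 8 genes and 27 other genes of the pathway among the genes used. This gave 27 clusters at MS-LS, 26 at OB-EB and 32 at EHF, of which 19, 15 and 20 took a name from fixed marker genes. Named clusters are called X-like, and the others (1321, 2036 and 1328 cells) are given by number and leading genes. Names are rebuilt from the counts and need not match those of the study. Doublets were kept, and leaving out the 5% of cells with the highest doublet scores is treated among the alternatives.

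**Figure D2:**
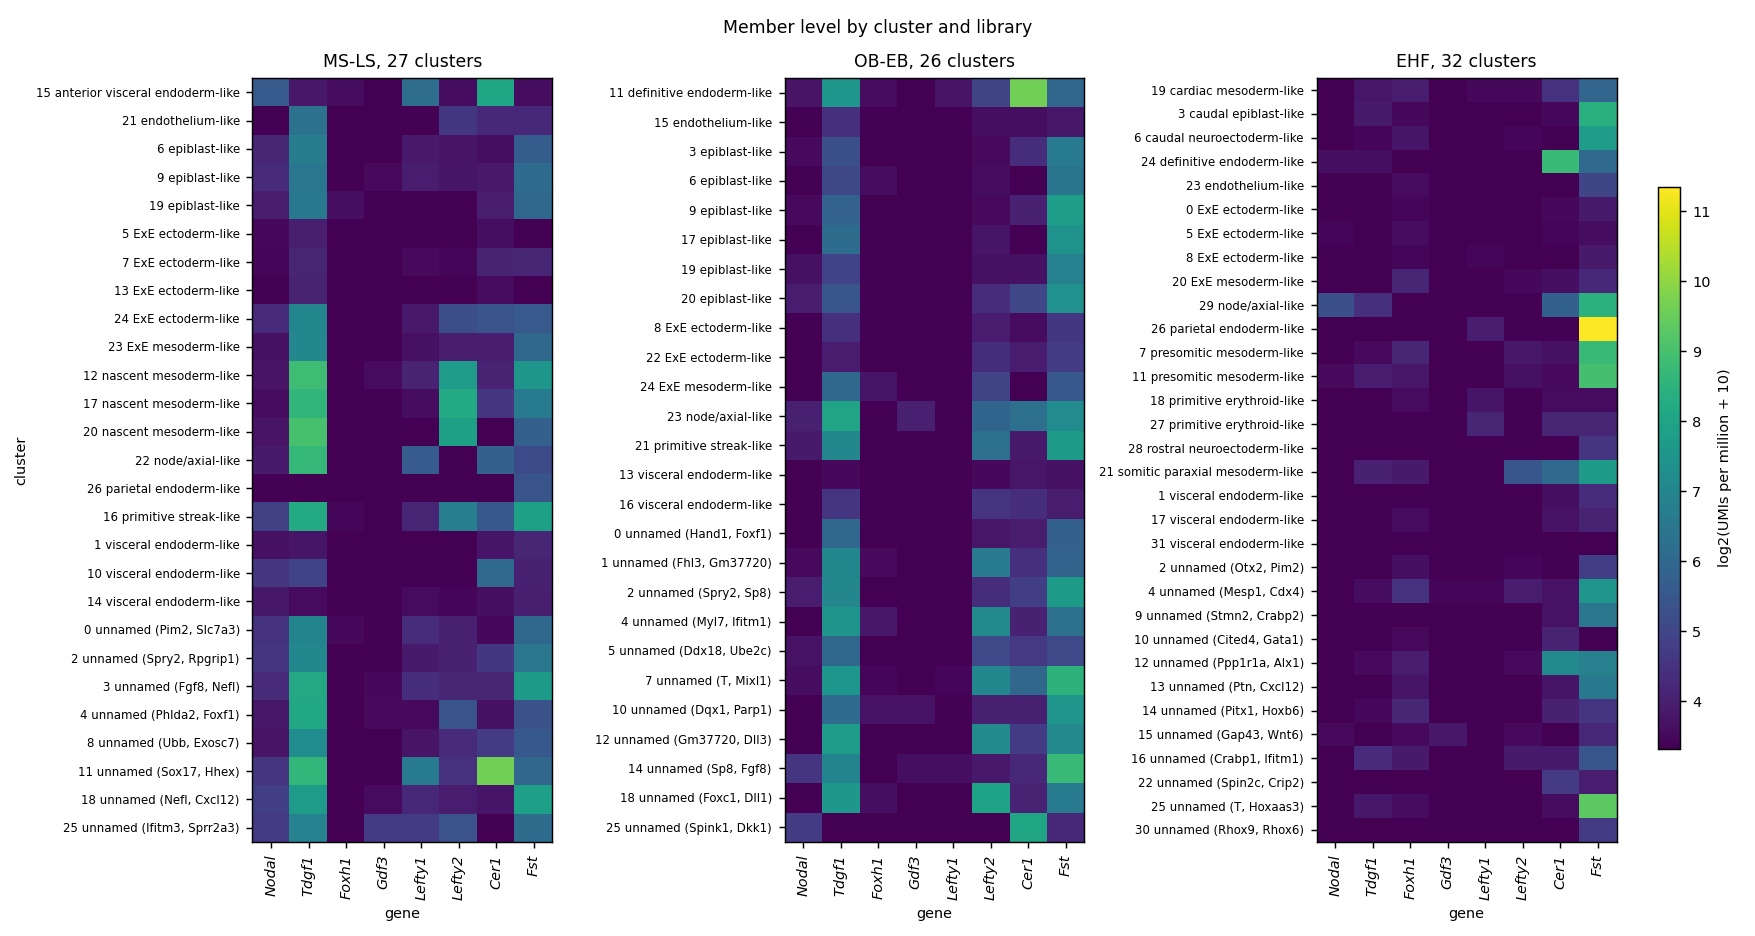
Level of the 8 genes (columns, log2 of CPM plus 10) in each cluster of the 3 libraries, to be read down a column and not between columns. *Lefty2* stands out in nascent mesoderm-like clusters at MS-LS, *Cer1* in endoderm clusters at each stage and *Fst* in the parietal endoderm-like cluster at EHF.

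*Nodal* (ENSMUSG00000037171; GRCm38 chromosome 10, 61417972 to 61425338, plus strand) encodes the ligand. Its level was 8.18 CPM at MS-LS (95% interval 6.91 to 9.62; 147 UMIs in 138 cells), 2.05 at OB-EB (1.33 to 3.03; 25 UMIs) and 0.442 at EHF (0.202 to 0.838; 9 UMIs in 6 cells). The intervals of the 3 stages do not overlap. The log2 ratio was −1.995 (−2.67 to −1.38) from MS-LS to OB-EB and −2.22 (−3.50 to −1.07) from OB-EB to EHF, or −2.59 minus the median of all genes.

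At MS-LS, *Nodal* was highest in anterior visceral endoderm-like cluster 15, with 37.8 CPM (22.4 to 59.7) from 18 UMIs in 14 of 134 cells. The next levels were 18.7 (11.7 to 28.4) in primitive streak-like cluster 16 and 8.63 to 33.1 (10 UMIs) in unnamed cluster 18 (*Nefl*, *Cxcl12*, *Nanog*). The upper of these levels cannot be ordered further, since the intervals of 10 other clusters reach that of cluster 15. Epiblast-like cells were at 8.51 (5.34 to 12.9) and nascent mesoderm-like cells at 2.71 (0.881 to 6.33), and *Nodal* had no UMI in 3 of the 27 clusters.

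A *Nodal* UMI was found in 10.4% of the anterior visceral endoderm-like cells (median 3290.5 UMIs), against 0.743% of the extraembryonic ectoderm-like cells (median 4838 UMIs), the class taken as background for the shares. With each cell thinned to 2000 UMIs, the shares were 8.403% (4.10 to 14.9; 15 shallower cells left out) and 0.192% (0.00487 to 1.07; 18 left out). The share in primitive streak-like cells went from 14.8% to 3.91% (1.28 to 8.88; none left out). In the anterior visceral endoderm-like class, *Nodal* was found in 1 of 42 cells with *Cer1* (2.38%, 0.0603 to 12.6) and in 9 of 77 without it (11.7%, 5.49 to 21.0), intervals that overlap. Before and after thinning, the intervals of *Nodal* shares in streak-like and anterior visceral endoderm-like cells overlapped.

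At OB-EB the 25 *Nodal* UMIs were spread over 13 of 26 clusters. Unnamed cluster 25 (*Spink1*, *Dkk1*, *Gpc4*) had the highest level, 16.8 CPM (2.04 to 60.7), but from 2 UMIs, and the intervals of all 25 other clusters reach it. Unnamed cluster 14 (*Sp8*, *Fgf8*, *Cxx1a*) held 6 UMIs, at 13.4 (4.92 to 29.2), above the interval of the epiblast-like cells (0.755 to 4.48). At EHF, 5 of the 9 UMIs came from 2 of the 43 cells of node and axial mesendoderm-like cluster 29, a level of 29.2 (9.48 to 68.2), and 27 of 32 clusters had none. The EHF signal in the node-like cells thus rests on 2 cells. In epiblast-like cells, which were named at MS-LS (clusters 6, 9 and 19) and OB-EB (clusters 3, 6, 9, 17, 19 and 20), the log2 ratio was −2.05 (−3.64 to −0.70), close to that of the whole libraries.

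*Gdf3* (ENSMUSG00000030117; chromosome 6, 122605403 to 122610087, minus strand) encodes a related ligand that can form dimers with Nodal. It had 7 UMIs at MS-LS (0.390 CPM, 0.157 to 0.803), 3 at OB-EB (0.246, 0.0508 to 0.720) and 4 at EHF (0.196, 0.0535 to 0.503). The 3 intervals overlap, and no change of *Gdf3* could be detected at this depth. In the last 500 bases of its transcript, 69 of 470 stretches of 31 bases (14.7%) also occur in transcripts of other genes, many of them repeats, so reads from *Gdf3* may be missed or shared.

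*Tdgf1* (ENSMUSG00000032494; chromosome 9, 110939603 to 110946158, minus strand) encodes Cripto, the EGF-CFC co-receptor that Nodal needs to reach its receptors. None of its 470 stretches of 31 bases occurs in a transcript of another gene. Its level was 146 CPM at MS-LS (141 to 152; 2631 UMIs in 1251 cells), 83.5 at OB-EB (78.4 to 88.8; 1017 UMIs) and 1.37 at EHF (0.913 to 1.99; 28 UMIs). Its log2 ratio was −0.81 (−0.92 to −0.71) in the earlier step. In the later step it was −5.92 (−6.52 to −5.38), or −6.30 minus the median of all genes. *Tdgf1* was therefore still abundant at OB-EB and almost lost from the EHF library, where 19 of 32 clusters had no UMI of it.

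The promoter of *Tdgf1* is shown because Foxh1, the DNA-binding partner of the pathway, is among the 8 genes. The window matches AATNNACA, a loose pattern searched for Foxh1 in which N is any base. The sequence comes from RefSeq (GRCm38.p6, chr9:110946159-110946408, minus strand, the 250 bases before the start), with matches to AATNNACA in capitals.
Tdgf1: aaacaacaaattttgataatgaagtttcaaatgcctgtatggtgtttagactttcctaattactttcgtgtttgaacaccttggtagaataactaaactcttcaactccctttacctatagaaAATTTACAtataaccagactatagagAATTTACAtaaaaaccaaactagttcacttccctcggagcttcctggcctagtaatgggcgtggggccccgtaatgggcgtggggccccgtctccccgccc
Both matches read AATTTACA on the strand of the gene, and they begin 127 and 101 bases before the start. On either strand, AATNNACA occurs in 11.1% of the 27025 promoters of this length. The other motifs searched were TAATCC (bound by Gsc and Otx2; 6.38% of promoters), AGGTGTGA (T-box proteins; 1.14%) and TATAAA (the TATA box; 13.0%). The promoter table matched 3 of the 8 genes, *Nodal*, *Tdgf1* and *Cer1*. The windows of *Nodal* (chr10:61417722-61417971, plus strand) and *Cer1* (chr4:82885152-82885401, minus strand) hold none of these letter strings, and that of *Tdgf1* holds none but AATNNACA. A match describes the sequence and is not a measured binding site. AATNNACA leaves its middle bases free, and whether Foxh1 binds AATTTACA was not tested.

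At MS-LS, *Tdgf1* was highest in nascent mesoderm-like clusters, a node-like cluster and an unnamed cluster, whose order was only partly resolved. Nascent mesoderm-like clusters 20, 12 and 17 were at 504 (426 to 593), 456 (403 to 515) and 379 (341 to 420) CPM. Node and axial mesendoderm-like cluster 22 was at 392 (311 to 489) and unnamed cluster 11 (*Sox17*, *Hhex*, *Hesx1*) at 383 (342 to 428). Intervals of neighbours among these 5 clusters overlap. Primitive streak-like cluster 16 came next with 290 (260 to 322), below the interval of nascent mesoderm-like cluster 17 but reaching that of node-like cluster 22. Epiblast-like cells were at 85.5 (74.6 to 97.6), visceral endoderm-like cells at 6.57 (3.96 to 10.3) and anterior visceral endoderm-like cells at 4.199 (0.508 to 15.2).

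The order of the embryonic classes for *Tdgf1* was thus epiblast-like, then streak-like, then nascent mesoderm-like, each step beyond counting error. After thinning to 2000 UMIs, a UMI was found in 17.3% (13.9 to 21.1; 2 left out) of epiblast-like cells and in 64 of 128 streak-like cells (41.0% to 59.0%; 0 left out). The thinned share was 57.7% (52.2 to 63.0; 4 left out) in nascent mesoderm-like cells and 1.34% to 4.24% (13 of 520; 18 left out) in extraembryonic ectoderm-like cells. Before thinning these shares were 32.4%, 87.5%, 85.4% and 6.13%. At equal depth the step from streak-like to nascent mesoderm-like cells was therefore not resolved in shares of cells. Of the extraembryonic ectoderm-like level of 14.7 CPM, a large portion came from cluster 24, whose 25 cells (median 8303 UMIs) were at 117 CPM. Without it, an alternative chosen after seeing the data, the level was 7.00. Of the UMIs of this background class, cluster 24 also held 2 of 4 for *Nodal* and 1 of 3 for *Lefty1*. It held 6 of 7 for *Lefty2*, 7 of 20 for *Cer1* and 8 of 20 for *Fst*.

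At OB-EB, *Tdgf1* was highest in node and axial mesendoderm-like cluster 23, with 247 CPM (177 to 337). Unnamed clusters 12 (*Gm37720*, *Dll3*, *Mesp1*) and 18 (*Foxc1*, *Dll1*, *Myl7*) followed with 206 (170 to 247) and 186 (147 to 232), and definitive endoderm-like cluster 11 with 176 (143 to 214). The intervals of 6 other clusters reach that of cluster 23. Epiblast-like cells were at 35.0 (28.5 to 42.5), and a UMI was found in 9.87% of them (median 2764 UMIs), or 6.53% after thinning (156 left out). In extraembryonic ectoderm-like cells (median 3034 UMIs) it was 2.88%, or 1.92% after thinning (35 left out), with an interval (0.526 to 4.85) just below that of the epiblast-like cells (4.88 to 8.52). Thinned to 1500 UMIs the intervals overlap (0.703 to 4.96 and 3.85 to 6.90), so the shares of *Tdgf1* cells were not clearly apart.

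In 3 embryonic classes named at both stages, *Tdgf1* was lower at OB-EB than at MS-LS, with a log2 ratio of −1.29 (−1.64 to −0.95) in epiblast-like cells, −1.25 (−1.89 to −0.66) in primitive streak-like cells (clusters 16 and 21) and −0.67 (−1.25 to −0.10) in node-like cells (clusters 22 and 23). From OB-EB to EHF it was −4.40 (−7.50 to −2.46) in node-like cells (40 and 2 UMIs; clusters 23 and 29) and −6.26 (−11.6 to −3.75) in definitive endoderm-like cells (100 and 1 UMIs; clusters 11 and 24). The low EHF level of *Tdgf1* was thus also found within both classes.

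**Figure D3:**
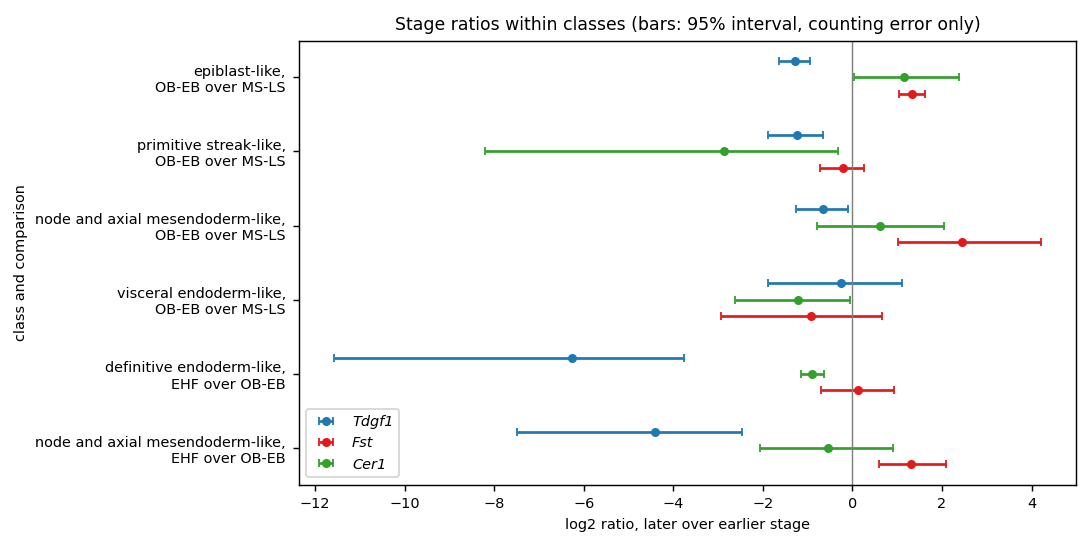
Log2 ratio of the later over the earlier stage for *Tdgf1*, *Cer1* and *Fst* in 5 of the classes named in both libraries, with 95% intervals for counting error as bars. *Tdgf1* lies below 0 in each class shown except the visceral endoderm-like cells, whose interval holds 0, while *Fst* lies above 0 in epiblast-like and node-like cells.

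*Foxh1* (ENSMUSG00000033837; chromosome 15, 76668225 to 76669948, minus strand) encodes the forkhead protein that carries activated Smad complexes to DNA. It had 4 UMIs at MS-LS (0.223 CPM, 0.0607 to 0.570), 9 at OB-EB (0.739, 0.338 to 1.40) and 66 in 62 cells at EHF (3.24, 2.51 to 4.12). Its course thus ran opposite to that of *Nodal* and *Tdgf1*, with the EHF interval above the others. Log2 ratios were 1.73 (−0.11 to 3.88) and then 2.13 (1.12 to 3.32), or 1.76 minus the median of all genes, but *Foxh1* stayed under the 100 UMIs needed for a call. *Kifc2* lies 28 bases away on the other strand. Whether counting used the read strand is not stated, and whether *Foxh1* UMIs include reads of *Kifc2* was not tested.

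Within EHF, *Foxh1* was highest in unnamed cluster 4 (*Mesp1*, *Cdx4*, *Evx1os*), at 12.5 CPM (6.46 to 21.8; 12 UMIs in 10 of 154 cells). Presomitic mesoderm-like cluster 7 was next, at 8.36 (3.07 to 18.2). The intervals of 28 other clusters reach that of cluster 4, so the order is mostly unresolved. Extraembryonic ectoderm-like cells were at 1.15 (0.312 to 2.94), below the interval of cluster 4. A UMI was found in 6.49% of cluster 4 (median 5943 UMIs) and in 0.832% of extraembryonic ectoderm-like cells (median 7125 UMIs). After thinning, these shares were 2.67% (0.731 to 6.69; 4 left out) and 0% (upper limit 0.770; 4 left out), so the difference in *Foxh1* was not resolved in shares of cells.

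*Lefty1* (ENSMUSG00000038793; chromosome 1, 180935022 to 180938400) and *Lefty2* (ENSMUSG00000066652; chromosome 1, 180893108 to 180899103) lie on the plus strand with 35918 bases between them. Both encode secreted TGF-beta family proteins that block Nodal and its co-receptor. The last 500 bases of *Lefty1* share 30 of 470 stretches of 31 bases with *Lefty2* (6.38%), while those of *Lefty2* share none with *Lefty1*. A small portion of *Lefty1* reads could thus be ambiguous.

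*Lefty1* was at 9.68 CPM at MS-LS (8.30 to 11.2; 174 UMIs in 115 cells), 0.328 at OB-EB (0.0895 to 0.841; 4 UMIs) and 0.344 at EHF (0.138 to 0.708; 7 UMIs). The log2 ratio from MS-LS to OB-EB was −4.88 (−6.77 to −3.50), and the later stages did not differ beyond counting error. At MS-LS it was concentrated in unnamed cluster 11 (151 cells; *Sox17*, *Hhex*, *Hesx1*), whose scores for definitive and anterior visceral endoderm lay too close for a name. This cluster held 43.1% of the *Lefty1* UMIs but 4.57% of all UMIs, a level of 91.3 (71.8 to 114). Anterior visceral endoderm-like cluster 15 was at 63.0 (42.5 to 89.9; 30 UMIs in 11 cells) and node and axial mesendoderm-like cluster 22 at 39.7 (17.2 to 78.3; 8 UMIs in 4 of 60 cells). The intervals of these 3 clusters overlap. Nascent mesoderm-like cells were at 3.26 (1.19 to 7.09).

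A *Lefty1* UMI was found in 31.1% of cluster 11 (median 4867 UMIs), or 15.4% after thinning (10.0 to 22.3; 2 left out), and in 0.372% of extraembryonic ectoderm-like cells, or 0.192% (18 left out). At OB-EB 23 of 26 clusters had no *Lefty1* UMI, and at EHF 26 of 32. In epiblast-like cells *Lefty1* had 11 UMIs at MS-LS and 0 at OB-EB. With OB-EB set to 3 UMIs in place of 0, its log2 ratio was −2.05, a value that leaves out the counting error of the 11 UMIs. Node-like cells had 8 and 0 *Lefty1* UMIs, with intervals of the level that overlap.

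*Lefty2* was at 36.9 CPM at MS-LS (34.1 to 39.8; 663 UMIs), 41.5 at OB-EB (37.9 to 45.2; 505 UMIs) and 1.86 at EHF (1.32 to 2.56; 38 UMIs). The log2 ratio was 0.17 (−0.00 to 0.34) in the earlier step and −4.47 (−4.99 to −4.00) in the later step, or −4.84 minus the median of all genes. Unlike *Lefty1*, it kept its whole-library level until OB-EB.

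At MS-LS, nascent mesoderm-like cells held 70.4% of the *Lefty2* UMIs and 10.3% of all UMIs. Clusters 17, 20 and 12 of this class were at 290 (257 to 326), 228 (176 to 290) and 205 (169 to 245) CPM, where neighbours in this order overlap. Primitive streak-like cluster 16 followed at 97.1 (80.1 to 117), and unnamed cluster 4 (*Phlda2*, *Foxf1*, *Hand1*) at 32.3 (20.3 to 48.9). Epiblast-like cells were at 3.10 (1.34 to 6.10) and anterior visceral endoderm-like cells at 2.10 (0.0531 to 11.7). *Lefty2* was thus highest in nascent mesoderm-like and streak-like clusters. *Lefty1* was highest in unnamed cluster 11, anterior visceral endoderm-like cluster 15 and node and axial mesendoderm-like cluster 22. After thinning, 31.4% of nascent mesoderm-like cells (26.4 to 36.6; 4 left out) and 0.385% of extraembryonic ectoderm-like cells (18 left out) had a *Lefty2* UMI, from 50.9% and 0.929% before it.

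**Figure D4:**
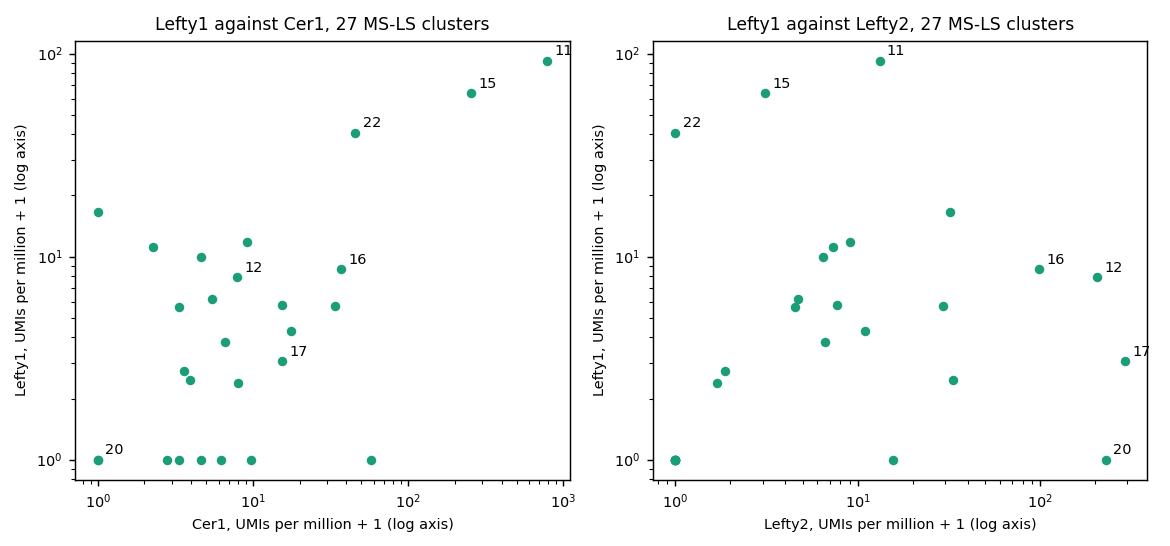
Level of *Lefty1* against *Cer1* (left) and against *Lefty2* (right) in the 27 MS-LS clusters, in CPM plus 1 on log axes, with cluster numbers beside the clusters named in the text. Clusters 11, 15 and 22 are high in *Lefty1*, and clusters 12, 17 and 20 in *Lefty2*.

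At OB-EB, *Lefty2* was highest in unnamed cluster 18 (*Foxc1*, *Dll1*, *Myl7*), at 243 CPM (198 to 295), which no other cluster's interval reached. Unnamed clusters 4 (*Myl7*, *Ifitm1*, *Crabp1*), 12 (*Gm37720*, *Dll3*, *Mesp1*) and 7 (*T*, *Mixl1*, *Frzb*) were at 134 (103 to 173), 131 (102 to 164) and 124 (104 to 148) and did not differ beyond counting error. Of these, 18, 4 and 12 scored highest for nascent mesoderm and 7 for primitive streak, without meeting the rule for a name. In cluster 18, 50.5% of cells had a *Lefty2* UMI, or 36.0% after thinning (27.1 to 45.7; 0 left out). Of the extraembryonic ectoderm-like cells, 2.06% had one, or 0 of 208 after thinning, which allows up to 1.76% (35 left out).

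At EHF, 21 of the 38 *Lefty2* UMIs were in somitic paraxial mesoderm-like cluster 21, in 20 of its 102 cells, at 34.3 CPM (21.2 to 52.4). Unnamed cluster 4 (*Mesp1*, *Cdx4*, *Evx1os*) was next with 5.21 (1.69 to 12.2), and 21 of 32 clusters had none. After thinning, 5.00% (1.64 to 11.3; 2 left out) of the somitic-like cells had a UMI, from 19.6%, while none of the extraembryonic ectoderm-like cells had one before or after it. The remaining *Lefty2* at EHF was thus mainly in paraxial mesoderm-like cells.

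*Cer1* (ENSMUSG00000038192; chromosome 4, 82881751 to 82885148, minus strand) encodes Cerberus, a secreted protein that binds Nodal and BMP ligands. Its level was 52.5 CPM at MS-LS (49.2 to 56.0; 944 UMIs), 51.1 at OB-EB (47.2 to 55.3; 623 UMIs) and 17.96 at EHF (16.2 to 19.9; 366 UMIs). The log2 ratio was −0.04 (−0.19 to 0.11) and then −1.51 (−1.70 to −1.32), or −1.88 minus the median of all genes.

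*Cer1* was highest in endoderm-type clusters at every stage. At MS-LS, unnamed cluster 11 (*Sox17*, *Hhex*, *Hesx1*) held 68.3% of its UMIs, at 785 CPM (725 to 848), followed by anterior visceral endoderm-like cluster 15 at 254 (211 to 304) and visceral endoderm-like cluster 10 at 56.2 (39.4 to 77.9). At OB-EB, definitive endoderm-like cluster 11 held 71.1%, at 781 (710 to 857), and unnamed cluster 25 (42 cells; *Spink1*, *Dkk1*, *Gpc4*) was at 261 (177 to 370). In both libraries the step from the highest to the next cluster was beyond counting error. Definitive endoderm-like cluster 24 held 183 of 366 UMIs at EHF, at 420 (361 to 486), a log2 ratio of −0.89 (−1.15 to −0.64) over the class at OB-EB.

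At EHF, *Cer1* was also found in mesoderm-type clusters. Unnamed cluster 12 (120 cells; *Ppp1r1a*, *Alx1*, *Tcf15*), which scored highest for anterior paraxial and pharyngeal mesoderm, was at 132 CPM (106 to 162) and held 25.4% of the *Cer1* UMIs, and somitic paraxial mesoderm-like cluster 21 was at 57.1 (39.8 to 79.5). Presomitic mesoderm-like cells were at 2.13 (0.438 to 6.21), below both. A *Cer1* UMI was found in 47.5% of cluster 12, or 20.3% after thinning (13.49 to 28.7; 2 left out), and in 0.624% of extraembryonic ectoderm-like cells, or 0.210% (4 left out). In definitive endoderm-like cells the shares were 58.7% and 37.5% (26.4 to 49.7; 3 left out).

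At MS-LS, *Cer1* and *Lefty1* were both highest in clusters 11 and 15 and were found, in part, in the same cells. This was not seen later, when *Lefty1* had few UMIs. After thinning, 0 of 145 cells with *Cer1* had *Lefty1* at OB-EB and 0 of 71 at EHF, against 2 of 2794 and 1 of 3114 others. Among MS-LS cells thinned to 2000 UMIs, 29 of the 57 cells with a *Lefty1* UMI also had a *Cer1* UMI (50.9%, 37.3 to 64.4), against 4.84% of the 3347 others. Within anterior visceral endoderm-like cells, *Lefty1* was found in 7 of 42 cells with *Cer1* (16.7%, 6.97 to 31.4) and in 1 of 77 without it (1.30%, 0.0329 to 7.02), intervals that just overlap. Within cluster 11 the shares were 18 of 101 (17.8%, 10.9 to 26.7) and 5 of 48 (10.4%, 3.47 to 22.7), so inside this cluster no link could be detected at this depth. *Lefty2* was found in 2 of the 57 cells with *Lefty1* (3.51%, 0.428 to 12.1), near the 4.36% of the others.

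*Fst* (ENSMUSG00000021765; chromosome 13, 114452290 to 114458951, minus strand) encodes follistatin, a secreted protein that binds activins and related ligands. An antisense gene, *Gm47040*, overlaps it by 289 bases, and whether *Fst* UMIs include reads of this gene was not tested. *Fst* was at 64.3 CPM at MS-LS (60.6 to 68.1; 1155 UMIs), 118 at OB-EB (112 to 124; 1437 UMIs) and 125 at EHF (120 to 130; 2549 UMIs). The log2 ratio was 0.88 (0.76 to 0.99) in the earlier step, under 2-fold. In the later step it was 0.08 (−0.01 to 0.18), but −0.29 minus the median of all genes, so its direction depends on the scaling.

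The EHF value of *Fst* depended on the parietal endoderm-like cluster. This cluster 26 was at 2573 CPM (2342 to 2820), with 456 UMIs in 61 of its 64 cells, and held 17.9% of the *Fst* UMIs but 0.870% of all UMIs. Its naming markers *Plat*, *Thbd*, *Pth1r*, *Lama1*, *Sox7* and *Lamb1* were all detected. Without it, an alternative chosen after seeing the data, EHF was at 104 (99.2 to 108), and the log2 ratio over OB-EB was −0.19 (−0.28 to −0.09). MS-LS had 10 parietal endoderm-like cells with 1 *Fst* UMI (32.5, 0.822 to 181), and OB-EB had no cluster of this name. In the EHF cluster, 95.3% of cells had a UMI (median 2742.5 UMIs), or 92.6% after thinning (82.1 to 97.9; 10 left out). In extraembryonic ectoderm-like cells (median 7125 UMIs) it was 2.29%, or 0.839% (4 left out).

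The other EHF clusters with high *Fst* were mostly of caudal and presomitic type. Unnamed cluster 25 (*T*, *Hoxaas3*, *Cdx1*), which scored highest for caudal epiblast, was at 629 CPM (560 to 705). Presomitic mesoderm-like clusters 11 and 7 were at 498 (446 to 553) and 414 (368 to 464), intervals that overlap. Node-like cluster 29 was at 339 (257 to 438) and caudal epiblast-like cluster 3 at 323 (285 to 364). Further down, caudal neuroectoderm-like cluster 6 was at 206 (180 to 235) and somitic paraxial mesoderm-like cluster 21 at 198 (164 to 236), while rostral neuroectoderm-like cells were at 13.49 (4.38 to 31.5). After thinning, *Fst* was found in 56.9% (50.5 to 63.0; 10 left out) of presomitic mesoderm-like and 33.8% (26.2 to 42.01; 0 left out) of caudal neuroectoderm-like cells, from 80.0% and 67.6%.

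**Figure D5:**
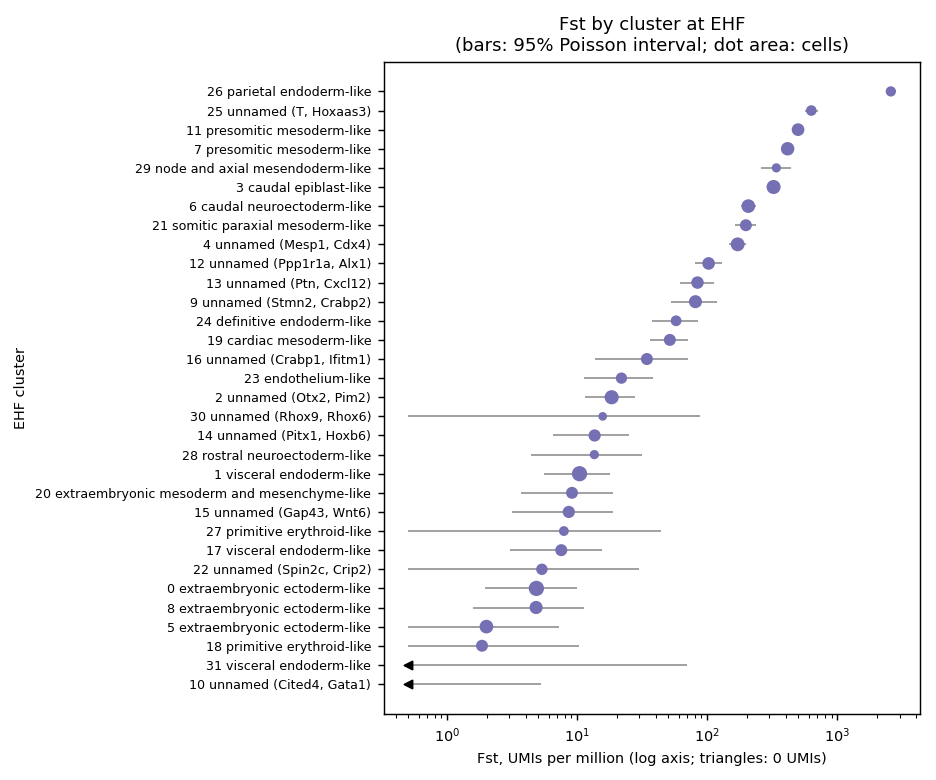
Level of *Fst* (CPM, log axis) in the 32 EHF clusters, with 95% Poisson intervals as bars, dot area for the number of cells and triangles for clusters with 0 UMIs. Parietal endoderm-like cluster 26 is far above the others, followed by clusters of caudal and presomitic type.

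At MS-LS, *Fst* was highest in primitive streak-like cluster 16, at 227 CPM (201 to 256). Unnamed cluster 18 (*Nefl*, *Cxcl12*, *Nanog*) was at 221 (184 to 264), unnamed cluster 3 (led by *Fgf8* and *Nefl*) at 198 (168 to 233) and nascent mesoderm-like cluster 12 at 180 (147 to 218). The intervals of these 4 clusters overlap. Nascent mesoderm-like cluster 17 was lower, at 92.2 (74.1 to 113), and epiblast-like cells were at 53.4 (44.9 to 63.1). At OB-EB, unnamed clusters 14 (*Sp8*, *Fgf8*, *Cxx1a*) and 7 (*T*, *Mixl1*, *Frzb*) were at 425 (366 to 489) and 352 (316 to 390), followed by epiblast-like cluster 9 at 213 (178 to 253).

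Within epiblast-like cells, *Fst* was higher at OB-EB (134 CPM, 121 to 148) than at MS-LS, with a log2 ratio of 1.33 (1.05 to 1.62). After thinning, a UMI was found in 7.74% of these cells at MS-LS (2 left out) and 18.8% at OB-EB (156 left out), from 18.1% and 24.1%. Thinned shares in extraembryonic ectoderm-like cells were 0.577% (18 left out) and 1.92% (35 left out), from 2.04% and 3.70%. In node-like cells the ratio was 2.45 (1.02 to 4.21; 5 and 22 UMIs) and then 1.32 (0.59 to 2.10). In primitive streak-like cells it was −0.22 (−0.74 to 0.26), but 0.58 and 0.66 at the lower and higher clustering resolution, so its direction was not resolved. The course of *Fst* in the epiblast-like class was opposite to that of *Tdgf1* and *Nodal* in this class. The class was made of different cells and clusters at each stage, and whether their mix enters these ratios was not tested.

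Cells with *Fst* and cells with *Tdgf1* were compared for overlap after thinning. In OB-EB epiblast-like cells, *Tdgf1* was found in 18 of 144 cells with *Fst* (12.5%, 7.58 to 19.0) and in 5.14% (3.55 to 7.19) of the 622 others, intervals that do not overlap. Differences between the 6 clusters of this class enter the comparison, since cluster 9 was higher than cluster 3 in thinned shares of both *Tdgf1* (11.6% and 3.23%) and *Fst* (26.2% and 12.9%). In MS-LS streak-like cells it was found in 22 of 44 cells with *Fst* and 42 of 84 without it, the same share. *Lefty2* and *Tdgf1*, although high in the same MS-LS clusters, showed no link between cells of the nascent mesoderm-like class, where *Tdgf1* was found in 57.5% (47.6 to 67.1) of cells with *Lefty2* and 57.8% (51.1 to 64.2) of those without it. Of the 66 MS-LS cells with a *Nodal* UMI, 11 had *Tdgf1* (16.7%, 8.62 to 27.9), against 22.5% of the others.

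Across all 85 clusters of the 3 libraries, the 8 genes were compared by Pearson's r of log2(CPM + 10), as a description. Differences between stages enter this r, and sparse counts lower it, so r was also taken within libraries, an alternative chosen after seeing the data. *Tdgf1* and *Lefty2* were at 0.72 over all clusters, and at 0.66 within MS-LS (27 clusters), 0.73 within OB-EB (26) and 0.45 within EHF (32). In the same order, *Lefty1* and *Cer1* were at 0.44, 0.77, 0.61 and −0.09, and *Nodal* and *Lefty1* at 0.58, 0.63, 0.34 and −0.10. *Tdgf1* and *Fst* were at 0.36, 0.76, 0.69 and 0.52. *Lefty1* and *Lefty2* were at 0.04, −0.04, 0.03 and −0.11. The order of the pairs thus depended on whether stages were pooled.

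Among genes with at least 300 UMIs, the 3 most like *Lefty2* over all 85 clusters, with differences between stages included, were the mesoderm gene *Mesp1* (r = 0.82), *Pcdh8* (0.81) and *Lhx1* (0.76). Those most like *Lefty1* were *Gsc* (0.62), *Lbh* (0.54) and *Uqcrb* (0.51), and those most like *Nodal* were *Lbh* (0.71), *Epha2* (0.67) and *Arl4a* (0.67). For *Cer1* they were *Elmo1* (0.68), *Shisa2* (0.67) and *Sfrp1* (0.67). For *Fst* they were *Cachd1* (0.75), the Wnt inhibitor gene *Frzb* (0.72) and *Prickle1* (0.69). The genes most like *Tdgf1* were *Mthfsl* (0.83), *Xaf1* (0.82) and the broadly expressed actin regulator gene *Cfl1* (0.82). *Foxh1*, with 79 UMIs in all, was most like *Prrx2* (0.65), *Hoxb3os* (0.65) and *Aldh1a2* (0.63). *Gdf3*, with 14 UMIs, was too sparse for the comparison.

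Of the 27 other genes of the pathway, 21 entered the count from MS-LS to OB-EB, 5 were called lower and 1 higher, against 3.28% and 4.17% of all genes. Among those called lower were the feedback inhibitor genes *Smad7* (log2 ratio −1.38) and *Pmepa1* (−1.23) and the targets *Eomes* (−1.21) and *Gsc* (−1.39), and the receptor gene *Acvr2b* was called higher (1.09). From OB-EB to EHF 22 entered, with 5 lower and 5 higher, against 5.55% and 15.2% of all genes, so the number higher is not far from that share. The corepressor gene *Skil* (−2.86), *Pmepa1* (−2.73), *Eomes* (−1.95), *Gsc* (−3.42) and *Lhx1* (−3.64) were lower. *Acvr2b* (1.44), the signal transducer *Smad3* (1.07), the corepressor gene *Tgif2* (1.07) and the Nodal inhibitor gene *Dand5* (1.48) were among those higher. Minus the median of all genes, 2 were higher and 5 lower in the earlier step (5.07% and 2.46% of all genes). In the later step 3 were higher and 7 lower (6.94% and 10.2%), without *Smad3* and *Tgif2* among the higher, so these counts depend on the scaling. Feedback and target genes of the pathway were thus among those lower in step with *Nodal* and *Tdgf1*, though not every target gene was lower at both steps.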

How the data were processed

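Gene counts of single cells in 3 stage libraries were used. The authors deposited counts of UMIs per gene and cell, made with Cell Ranger 3.0.2 against GRCm38 and filtered with Seurat 3 in R 3.6.1, without normalization. The 8 genes, the pathway list and the marker panels were chosen with earlier results of these data known. The text names the 8 genes, called genes of the pathway list, leading or naming genes of clusters, and the 3 most similar genes of each, apart from some that are not reported here.

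Every deposited cell was kept, doublets included. Clusters were made per library with Seurat 5.3.0 in R 4.3.3 (log-normalization to 10000, 2000 variable genes, 50 principal components, resolution 4.5). A cluster took a name with at least 3 detected markers (in at least 20% of cells and 2 times the level elsewhere) and a margin of 0.2 on the next score, taken as a mean log2 ratio with 10 CPM added. Leading genes were among those in at least 25% of cells. Python 3.11.15 (pandas 2.3.3, matplotlib 3.10.9, scipy 1.17.1, numpy 2.4.6) gave exact Poisson intervals for levels, Clopper-Pearson intervals for shares and conditional intervals for ratios, and Scrublet (scanpy 1.11.5) gave doublet scores. The steps were tested on simulated data. Gene positions came from GENCODE vM21.

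Alternatives were cells of at least 2000 UMIs, cells within the mitochondrial limit, the 5% highest doublet scores left out, totals without mitochondrial and ribosomal protein genes, median-centred ratios, 1.5-fold and 4-fold calls, a minimum of 30 UMIs, resolutions 2 and 8, held-out genes allowed, the study's own cell names, no thinning or thinning to 1500 UMIs, and likeness within a library.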

Additional observations from a re-analysis of the deposited data

How the results depend on the processing

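No paired analysis was possible because each stage is 1 library. Where values moved, the cause was not tested. Signs turned for *Fst* ratios given here and, with median-centring, for *Cer1* from MS-LS to OB-EB (0.05) and *Lefty1* from OB-EB to EHF (−0.31). They also turned for some correlations taken within a library.

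With totals free of mitochondrial and ribosomal protein genes, levels were higher: *Nodal* 11.6 CPM at MS-LS, *Tdgf1* 208 at MS-LS and 119 at OB-EB, *Foxh1* 4.55 at EHF and *Lefty1* 13.7 at MS-LS. At MS-LS, OB-EB and EHF in turn, *Lefty2* was at 52.3, 58.9 and 2.62, *Cer1* at 74.5, 72.7 and 25.2, and *Fst* at 91.1, 168 and 176. Without the parietal endoderm-like cluster, chosen after seeing the data, *Fst* was at 104 at EHF.

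From MS-LS to OB-EB, 1 gene was called higher (*Fst*) and 3 lower at 1.5-fold (11.3% and 13.6% of all genes), and 1 lower at 4-fold (0.206%). From OB-EB to EHF, 1 was higher (*Foxh1*) and 4 lower, *Nodal* among them, with a minimum of 30 UMIs (19.1% and 6.57% of all genes). In that step, median-centred log2 ratios were −1.88 for *Cer1* and −0.29 for *Fst*, and *Fst* was at −0.19 without the parietal endoderm-like cluster.

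In nascent mesoderm-like cells at MS-LS, *Tdgf1* was at 340 CPM at resolution 2 (423 at 4.5), and *Lefty2* at 171 at resolution 2 and 278 with held-out genes allowed (253 without them). From MS-LS to OB-EB, the log2 ratio of *Fst* was 1.64 in epiblast-like cells at resolution 2, and in primitive streak-like cells 0.58 at resolution 2 and 0.66 at resolution 8. Without the highest doublet scores, *Fst* was at 262 CPM in primitive streak-like cells at MS-LS (227 with them). By the study's own names *Tdgf1* was at 108 in epiblast at MS-LS (85.5 in epiblast-like cells).

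Anterior visceral endoderm-like, somitic-like and presomitic-like cells were not named at resolution 2. The study's own names could not be read for anterior visceral endoderm and primitive streak at MS-LS or for epiblast at OB-EB.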
